A study of Mus musculus with 13 samples.

Results

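The 39 genes described here work in chromosomal DNA replication and S phase. The rule picks them by gene symbol and uses no measured value. Of these, 36 had a named probe on the array, and 32 had a probe above background on at least 1 of the 13 arrays and were tested together with the other genes, 10923 in all. Rfc3, Gins1 and Gins2 had no named probe here, and Orc1, Pola1, Pole2 and Slbp were not above background on any array. By role, the 32 tested genes comprise 6 subunits of the MCM helicase (Mcm2 to Mcm7), 4 origin and licensing factors (Orc2, Orc6, Cdc6, Cdt1), 2 helicase activators (Mcm10, Cdc45), 5 polymerase and primase subunits (Pola2, Prim1, Prim2, Pold1, Pole), 4 clamp, clamp loader and single-strand binding genes (Pcna, Rfc4, Rfc5, Rpa2), 2 enzymes that finish the lagging strand (Fen1, Lig1), 4 enzymes of deoxynucleotide supply (Rrm1, Rrm2, Tyms, Tk1), 2 chromatin assembly genes (Chaf1a, Chaf1b) and 3 regulators of S phase entry (Ccne1, Ccne2, E2f1).

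Replication starts with licensing: the origin recognition complex, Cdc6 and Cdt1 load the ring-shaped MCM helicase onto origins in G1, and cyclin E and the E2F transcription factors promote entry into S phase. Mcm10, Cdc45 and the GINS complex turn the loaded ring into a moving helicase, after which primase and the polymerases copy the strands with the help of the Pcna clamp. Many of these genes are transcribed at the G1/S boundary under E2F control, and their transcripts are widely used to recognise cycling progenitors, neural stem cells among them.

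The samples are mouse cells of strain C3H, 13 arrays of 7 kinds. Clones 1 to 3 were measured, with 1 array each, of cultured neural stem cells (NSC), of induced neural stem cells made from embryonic fibroblasts (iNSC), and of neural progenitors obtained by differentiating embryonic stem cells (ESC NPC). The fibroblasts (MEF) and undifferentiated embryonic stem cells (ESC) have a single array each, as do the in vivo states of both neural stem cell kinds (NSC in vivo, iNSC in vivo). For iNSC in vivo the submitters state transplantation into adult mouse brain and the number 14 with no unit, whereas for NSC in vivo no transplantation is mentioned, and neither conversion factors nor a cell sort are given. Whether the clones came from separate animals or derivations is not stated, so p-values measure only the spread between these clones.

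The promoters of several of these genes carry E2F-like sequence. Those of the helicase subunits Mcm5 and Mcm6 are shown because one rose with most of the list in ESC NPC and the other gave opposite directions by probe. Each line gives bases upstream of the RefSeq gene (GRCm38.p6), 5′ to 3′ on the gene's strand, with capitals on matches to the octamers TTTGGCGC, TTTCGCGC or TTTCCCGC on either strand. The stretches are chr8:75109259-75109467 (plus strand) for Mcm5 and chr1:128359706-128359955 (minus strand) for Mcm6.
Mcm5: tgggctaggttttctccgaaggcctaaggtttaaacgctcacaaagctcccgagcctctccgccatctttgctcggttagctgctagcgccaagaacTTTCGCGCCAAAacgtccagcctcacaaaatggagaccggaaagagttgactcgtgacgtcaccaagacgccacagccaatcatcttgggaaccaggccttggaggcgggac
Mcm6: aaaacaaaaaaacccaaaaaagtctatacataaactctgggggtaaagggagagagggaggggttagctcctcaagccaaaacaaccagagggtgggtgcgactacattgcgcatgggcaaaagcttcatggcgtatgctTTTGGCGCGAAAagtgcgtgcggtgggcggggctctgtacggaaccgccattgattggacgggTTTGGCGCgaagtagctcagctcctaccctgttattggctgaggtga
In both, 2 matches overlap to form one capital run, and Mcm6 holds a further match 47 bases before its start. In the promoter table's windows of 250 bases before to 50 after its own start site, which can lie inside the RefSeq gene, 12 of 33 genes of the list held a match, or 36.4%, against 2.12% of 27025 genes in the table. The other genes with a match were Mcm3, Mcm7, Cdc6, Cdt1, Lig1, Pold1, Orc1, Pola1, Pole2 and Rfc3. The CCAAT box, which is common in cell cycle promoters, was present in 57.6% of the genes of the list and 41.1% of all genes, and TTTGAA, the core of the element bound by the DREAM repressor complex, in 9.09% and 20.2%. A match describes these letters and is not evidence of binding, and these shares carry no test.

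Several arrays stood apart and bear on the results. The 11 arrays of cultured cells detected 40.8% to 49.9% of probes and 22 to 32 of the 32 tested replication genes. NSC in vivo detected 26.7% of probes and 12 of these genes, and iNSC in vivo 26.2% and 17. These 12 and 17 are 37.5% and 53.1% of the replication genes, against 50.7% and 49.8% of all genes tested. The lowest level of a detected probe was 6.44 for NSC in vivo and 6.50 for iNSC in vivo (log2 normalized intensity, the scale of all levels below), against 4.60 to 5.05 elsewhere. Of 5 tested neural stem cell markers, only Slc1a3 was detected on either in vivo array, while Sox2, Nes, Fabp7 and Olig2 were not. All 5 tested microglia markers (mean level 9.0 for NSC in vivo, 9.27 for iNSC in vivo) and all 4 of mature oligodendrocytes (11.29 and 10.23) were detected there. Of 4 endothelial markers, 4 and 3 were detected (9.78 and 7.47), of 7 fibroblast markers 4 and 4 (6.22 and 6.62), of 4 neuron markers 3 and 3 (8.45 and 7.84), and of 5 astrocyte markers 3 and 4 (6.77 and 7.5). The ESC NPC arrays detected 4 of 5 neural stem cell markers, all 7 pluripotency markers (mean level 8.93 to 9.05, against 9.84 on ESC and 4.45 to 4.51 on NSC and iNSC) and 4 of 7 fibroblast markers. The MEF and ESC signals also differ in format: 0.156% of them have 1 decimal at most, against 100% on each of the other 11 arrays, and the part of that in comparisons with MEF or ESC was not tested. The MEF array detected all 7 fibroblast markers and also all 5 neural stem cell markers. In these bulk samples a smaller number of cycling cells and less RNA of these genes per cell cannot be told apart.

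**Figure D1:**
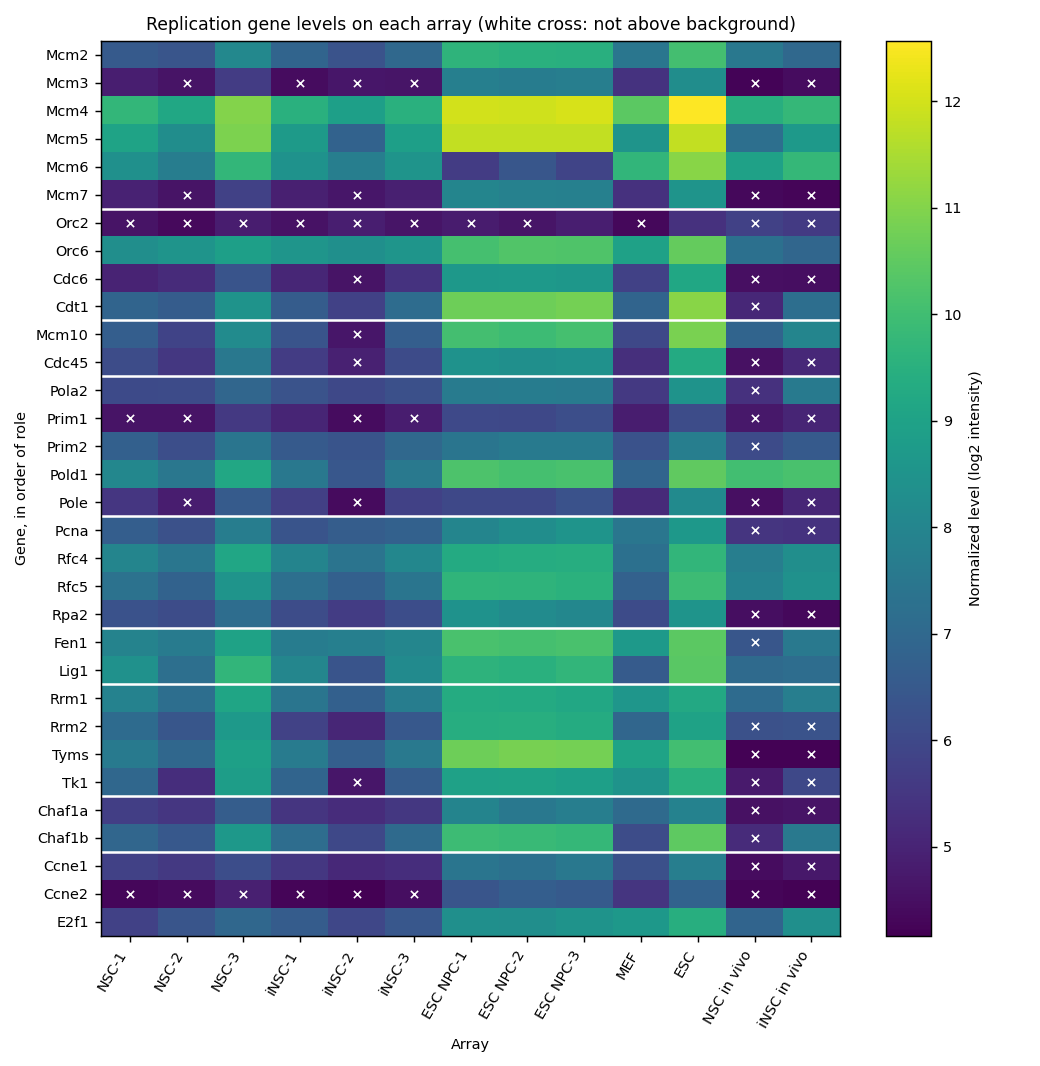
Log2 normalized intensity of the 32 tested replication genes (rows, in order of role, white lines between roles) on each of the 13 arrays (columns); a white cross marks a probe that was not above background. The 3 ESC NPC arrays and the ESC array are bright for most genes, with Orc2, Mcm6, Pole and Prim1 among the dim ones on ESC NPC, and crosses gather on the in vivo arrays and on iNSC-2.

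Averaged over the 32 tested genes, the level was 6.71, 6.30 and 7.86 in NSC-1, NSC-2 and NSC-3, and 6.60, 5.95 and 6.72 in iNSC-1, iNSC-2 and iNSC-3. ESC NPC gave 8.70, 8.70 and 8.73, ESC 9.29 and MEF 6.94, while the level in vivo was 6.04 for NSC and 6.58 for iNSC. ESC and ESC NPC thus lay above every other array, and 25 of the 32 genes had their highest value on the ESC array. The clones of ESC NPC were nearly alike for these genes, with a median SD of 0.08 over the genes, against 0.35 in iNSC and 0.86 in NSC. Over all genes tested the median SDs were 0.10, 0.15 and 0.16.

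**Figure D2:**
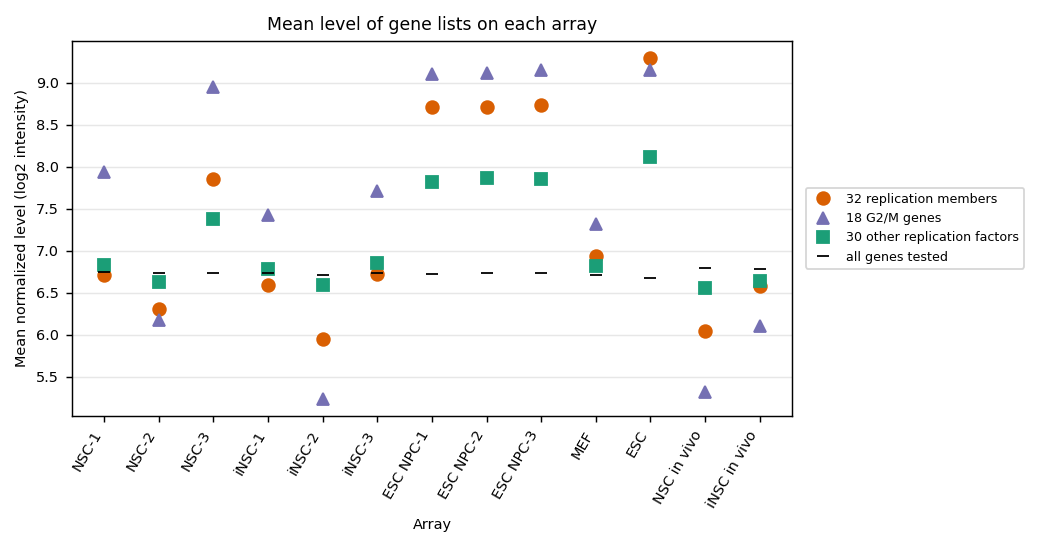
Mean log2 normalized intensity per array (x axis: the 13 arrays) over the 32 replication genes (circles), 18 G2/M genes (triangles), 30 other replication factors (squares) and all 10923 genes tested (short lines). The replication genes run from 5.95 on iNSC-2 to 9.29 on ESC while the mean over all genes stays between 6.67 and 6.80.

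The comparison of ESC NPC with NSC asked how neural progenitors derived from embryonic stem cells differ from neural stem cells in culture. Replication genes were higher in ESC NPC in every role: 27 of the 32 rose, 1 (Mcm6, by the probe used) fell and 4 (Orc2, Pole, Lig1, Tk1) did not pass (limma, adjusted p under 0.05). Over all genes 27.8% rose and 29.6% fell. The ESC NPC clones lay above all NSC clones for 28 genes and below them for 1, where 31.3% and 33.6% of all genes did so. The median difference of the 32 genes was 1.94 on the log2 scale, against -0.02 over all genes. Set against iNSC, which answers the same question for the induced cells and shares the ESC NPC arrays, 29 were lower in iNSC, 1 (Mcm6) was higher, and Orc2 and Pole did not pass, where 28.9% of all genes were lower and 31.4% higher. For 30 genes every iNSC clone lay below every ESC NPC clone and for 1 above, against 33.4% and 35.7% of all genes. Its median was -2.32, against 0.02 over all genes. The pluripotency markers named above moved with both comparisons, and their part in the result was not tested.

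Against NSC, the licensing factors Cdt1 and Cdc6 gave the largest differences among the 32 genes. Cdt1, which brings the MCM ring to origins, read 6.87, 6.62 and 8.49 in the NSC clones, 6.61, 5.78 and 7.13 in iNSC and 10.71, 10.70 and 10.80 in ESC NPC. Every ESC NPC clone lay above every NSC and iNSC clone, so that Cdt1 was 10.6-fold higher than in NSC (3.41 ± 0.48, log2 difference ± SE, adjusted p = 0.00022) and 18.8-fold higher than in iNSC. Cdc6, the ATPase that loads MCM together with Cdt1, read 5.0, 5.20 and 6.35 in NSC, 5.07, 4.61 (not above background) and 5.40 in iNSC, and 8.63, 8.72 and 8.61 in ESC NPC. Its groups did not overlap either, with differences of 3.14 ± 0.33 from NSC (8.79-fold, adjusted p = 3.4e-05) and 12.4-fold from iNSC. Orc6, a subunit of the origin recognition complex, was 3.11-fold higher than in NSC (1.63 ± 0.15), while Orc2, another subunit, was above background in 1 ESC NPC clone and in no NSC or iNSC clone and has no usable difference here.

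Of the 6 MCM subunits, 5 rose and Mcm6 fell by the probe used. Mcm7 read 4.98, 4.60 and 5.79 in NSC, with NSC-2 not above background, 4.91, 4.68 and 4.92 in iNSC, with iNSC-2 not above background, and 7.99, 7.85 and 7.82 in ESC NPC. It was 6.81-fold higher than in NSC (2.77 ± 0.25, adjusted p = 1.4e-05) and 8.31-fold higher than in iNSC. Mcm3 read 4.85, 4.59 and 5.66 in NSC, with NSC-2 not above background, and 7.80, 7.70 and 7.75 in ESC NPC, a 6.56-fold difference (2.71 ± 0.23, adjusted p = 9.2e-06). No iNSC clone had Mcm3 above background (4.43, 4.66 and 4.65), so ESC NPC was at least 7.08-fold higher, where each iNSC array was set to its lowest detected level or the probe's own value, whichever was higher. Mcm2 read 6.54, 6.36 and 8.09 in NSC, 6.87, 6.32 and 7.01 in iNSC and 9.62, 9.51 and 9.46 in ESC NPC, 5.79-fold above NSC (2.53 ± 0.40, adjusted p = 0.00045). Mcm5, which closes the ring with Mcm2, read 9.03, 8.29 and 10.90 in NSC, 8.76, 6.79 and 8.90 in iNSC and 11.78, 11.78 and 11.81 in ESC NPC. The difference from iNSC was 12.5-fold (adjusted p = 0.0013) and that from NSC 5.22-fold (adjusted p = 0.014), and the groups did not overlap in either. Mcm4 was 4.11-fold above NSC and 6.50-fold above iNSC.

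Mcm6 has 4 probes, and they disagree. The probe used, chosen as the brightest over all arrays, read 8.39, 7.72 and 9.74 in NSC, 8.45, 7.76 and 8.50 in iNSC, 5.67, 6.42 and 5.87 in ESC NPC and 11.08 on ESC. By it Mcm6 was lower in ESC NPC than in NSC by 2.63 ± 0.45 (log2, adjusted p = 0.00085) and lower than on ESC by 5.10 ± 0.64. The other 3 probes gave the opposite direction against NSC, with differences of 2.37 ± 0.41, 1.14 ± 0.13 and 2.44 ± 0.41 (adjusted p = 0.00085, 7.4e-05 and 0.00069), and did not pass against ESC (-0.65, -0.34 and -0.76). On the in vivo arrays the probe used was detected at 8.96 and 9.76, and the other 3 were not above background on either. With any of these 3 in its place, 28 replication genes rose and none fell against NSC, and 30 were lower and none higher in iNSC than in ESC NPC. Where the probes lie in the transcript was not analysed here, so the direction for Mcm6 is uncertain.

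**Figure D3:**
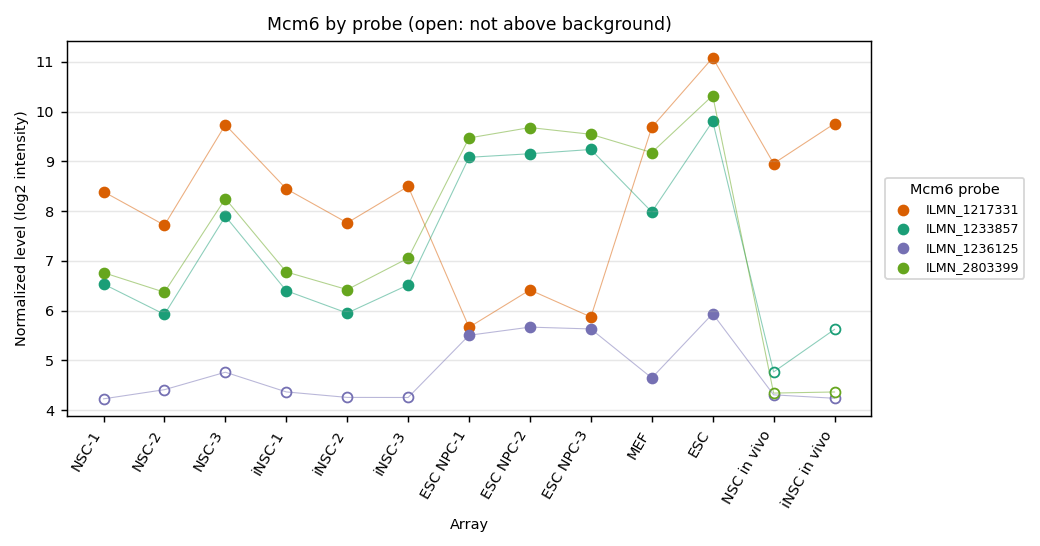
Log2 normalized intensity (y axis) of the 4 Mcm6 probes on each of the 13 arrays (x axis), with filled points above background and open points not above it. The probe ILMN_1217331, used in the fit, drops to between 5.67 and 6.42 on the ESC NPC arrays, where the other 3 probes are above their NSC and iNSC values.

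Genes that act after licensing rose as well. Mcm10, which activates the loaded helicase, read 6.67, 5.85 and 8.23 in NSC, 6.33, 4.66 (not above background) and 6.68 in iNSC and 10.06, 9.94 and 10.07 in ESC NPC. ESC NPC was 8.64-fold above NSC (3.11 ± 0.62, adjusted p = 0.0021) and 17.6-fold above iNSC (4.13 on the log2 scale). Cdc45, a component of the active helicase, was 4.02-fold above NSC. Among polymerases, Pold1, the catalytic subunit of polymerase delta, rose 3.74-fold, and Pola2, Prim1 and Prim2 of the polymerase alpha and primase complex rose 2.51-, 2.19- and 1.71-fold. Pole, the catalytic subunit of the leading-strand polymerase epsilon, did not pass (0.45 ± 0.46), with ESC NPC at 5.99, 5.99 and 6.27 inside the NSC range of 4.83 to 6.58. Pcna, Rfc4, Rfc5 and Rpa2 rose 2.60-, 2.24-, 4.14- and 3.28-fold. Fen1, the flap nuclease that trims Okazaki fragments, rose 3.84-fold. The ligase Lig1 did not pass by the probe used (1.14 ± 0.61, adjusted p = 0.14, limma). Its other probes were higher in ESC NPC than in NSC by 2.05, 1.57 and 0.86 (log2). By each of them every ESC NPC clone lay above every NSC clone, with NSC-2 not above background, and they were not tested singly.

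Nucleotide supply, chromatin assembly and S phase entry showed the same direction. Tyms, which makes thymidylate, read 7.58, 6.98 and 8.93 in NSC, 7.65, 6.70 and 7.56 in iNSC and 10.71, 10.83 and 10.80 in ESC NPC, and was 7.71-fold above NSC (2.95 ± 0.44, adjusted p = 0.00032) and 11.1-fold above iNSC. Rrm2, the regulated subunit of ribonucleotide reductase, read 7.11, 6.41 and 8.72 in NSC, 5.83, 5.06 and 6.49 in iNSC and 9.39, 9.43 and 9.32 in ESC NPC. ESC NPC was 3.90-fold above NSC (adjusted p = 0.011) and 12.0-fold above iNSC (adjusted p = 0.0003), without overlap. Chaf1b, a subunit of the chromatin assembly factor that deposits histones behind the fork, read 6.93, 6.49 and 8.64 in NSC, 7.17, 6.0 and 7.06 in iNSC and 9.92, 9.85 and 9.77 in ESC NPC, 5.64-fold above NSC and 8.61-fold above iNSC. Its partner Chaf1a rose 3.48-fold over NSC. Of the cyclins that drive S phase entry, Ccne1 rose 2.99-fold, and Ccne2, above background in all ESC NPC clones and in no NSC or iNSC clone, was higher by at least 3.14-fold than in NSC. E2f1, the activating transcription factor, rose 4.0-fold. Tk1 (1.94 ± 0.83, adjusted p = 0.072) did not pass, its NSC clones ranging from 5.27 to 8.84.

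With each array scaled by its median instead, the median of all genes stood at -0.19 for ESC NPC against NSC. Under it 23 replication genes rose and 1 fell, with a median of 1.49. The share of all genes called under this scaling is not given here. The genes with an E2F octamer match had a median difference of 2.55 (8 tested genes, -2.63 to 3.41) and those with a window but no match 1.87 (20 genes, 0.16 to 3.11). This is a description without a test.

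**Figure D4:**
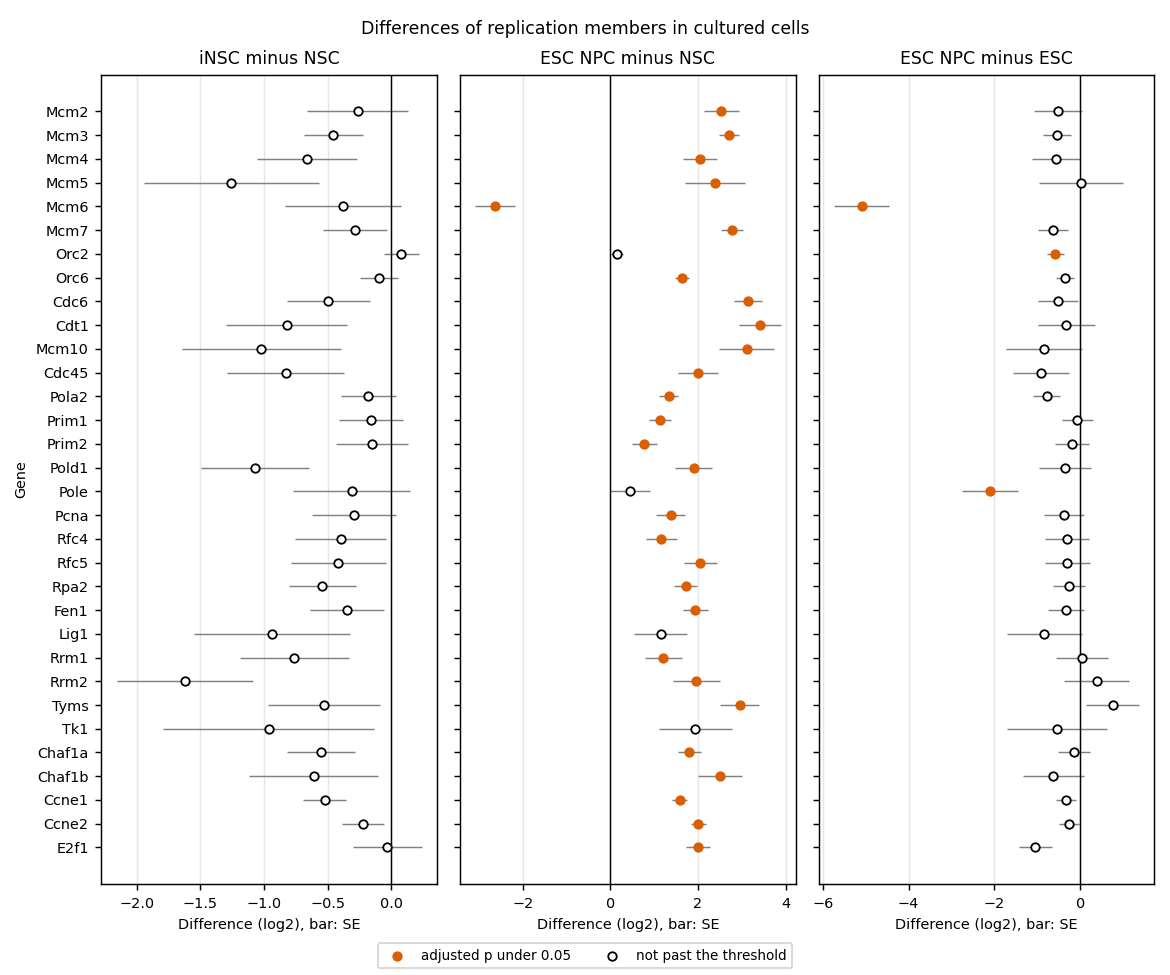
Log2 difference (x axis, bars are SE) of each of the 32 tested genes (y axis) for iNSC minus NSC, ESC NPC minus NSC and ESC NPC minus ESC, with filled points where the adjusted p was under 0.05. The middle panel is filled and to the right of 0 for 27 genes, whereas the left panel has no filled point and the right panel 3, Mcm6, Orc2 and Pole.

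Setting iNSC beside NSC asks how near cells converted from fibroblasts come to neural stem cells in culture. No replication gene passed the threshold (limma), and 3 were at an unadjusted p under 0.05: Rrm2, Ccne1 and Pold1. Of the 10923 genes tested, 3421 were under that unadjusted p. Past the adjusted threshold, 10.3% of all genes were higher and 9.42% lower. The fitted difference was below 0 for 31 of the 32 genes, with a median of -0.48 against 0.01 over all genes. Rrm2 showed the largest, -1.62 ± 0.54 (adjusted p = 0.065), and its iNSC range of 5.06 to 6.49 overlapped the NSC range of 6.41 to 8.72. Ccne1 read 5.54, 5.13 and 5.26 in iNSC and 5.79, 5.55 and 6.16 in NSC, the only one of the 32 whose groups did not overlap (-0.53 ± 0.17, adjusted p = 0.056), where 15.2% of all genes had iNSC below NSC without overlap. Pold1 read 7.53, 6.43 and 7.58 in iNSC and 8.05, 7.51 and 9.21 in NSC (-1.07 ± 0.42, adjusted p = 0.12).

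The size of this difference varied with the clones. In each same-numbered pair the mean level over the 32 genes was lower in iNSC (6.60 against 6.71, 5.95 against 6.30 and 6.72 against 7.86). NSC-3 was the highest NSC clone for 32 of 32 replication genes and for 18 of 18 G2/M genes, while it was highest for 35.8% of all genes. It exceeded the mean of NSC-1 and NSC-2 by a median of 1.41 (0.33 for the nearest gene to 2.73 for the farthest). iNSC-2 was the lowest iNSC clone for 28 of 32 replication genes and for 18 of 18 G2/M genes (34.9% of all genes), below the mean of its group by a median of 0.40, with a G2/M mean of 5.24 against 7.42 and 7.71 in iNSC-1 and iNSC-3. Leaving out the highest NSC clone raises the difference by construction: without NSC-3, 16 genes were lower and 16 higher in iNSC, with a median of -0.01 and none past the threshold. Leaving out NSC-2, the lowest NSC clone for 26 genes, lowers the difference by construction, and 3 then passed as lower in iNSC (Rrm2, Ccne1, Pold1). The shares of all genes called, given above, belong to the main fit and not to the alternatives in this paragraph. With the clone number as a block, 11 genes were under an unadjusted p of 0.05 and 2 passed, Rrm2 (adjusted p = 0.013) and Pold1 (adjusted p = 0.043). Among 7 tested cell cycle inhibitors, Cdkn2a and Cdkn2b, inhibitors of the kinases Cdk4 and Cdk6, were 5.23- and 5.04-fold higher in iNSC (adjusted p = 0.00048 and 4e-05), and Cdkn1c, an inhibitor of cyclin-dependent kinases, was 14.1-fold lower (adjusted p = 0.00041).

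Against fibroblasts, the cell type they were induced from, 5 genes were lower in iNSC and none higher, where 21.9% of all genes were lower and 28% higher. They were E2f1, Tyms, Chaf1a, Ccne2 and Ccne1. E2f1 read 8.64 on MEF and 6.62, 5.97 and 6.45 in iNSC (-2.29 ± 0.38, adjusted p = 0.00086), and Chaf1a 7.07 against 5.46, 5.22 and 5.51 (-1.67 ± 0.38, adjusted p = 0.0048). Ccne1 read 6.23 on MEF (1.89-fold above iNSC), and Ccne2 5.46, at least 1.45-fold above iNSC, where no clone was above background. Tyms read 9.04 (-1.74 ± 0.62, adjusted p = 0.042), and the call was lost without iNSC-2 (adjusted p = 0.090), without iNSC-3 (adjusted p = 0.057) and with the mean of its probes (-0.78, adjusted p = 0.14). All 3 regulators of S phase entry were thus lower in iNSC than on the single MEF array (-2.29 to -0.92). None of the 6 MCM subunits passed, although 2 of the other Mcm6 probes did (-1.70 and -2.43, adjusted p = 0.036 and 0.0064, limma). All 6 MCM differences were also below 0 (-1.45 to -0.35), in a range that overlaps that of the regulators. The calls therefore do not show that these roles differed in size. MEF is 1 array and was assumed to vary like the clones. The error of this test also includes the spread of the NSC clones, which was wide for these genes (median SD 0.86).

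Against the ESC array, ESC NPC replication genes fell in 3 cases, Mcm6, Pole and Orc2, and rose in none, where 22.5% of all genes were lower and 22.2% higher. Pole read 8.19 on ESC and 5.99, 5.99 and 6.27 in ESC NPC (-2.10 ± 0.65, 4.30-fold, adjusted p = 0.026), and Orc2 5.35 against 4.80, 4.65 and 4.86 with 1 clone above background (-0.58 ± 0.19, adjusted p = 0.034). The Mcm6 call came only from the probe described above. Leaving out ESC NPC-1 or ESC NPC-2 left 1 call, Mcm6. The median difference of the 32 genes was -0.37, and for 28 of them ESC NPC lay lower than ESC. The error of this test pools the spread of all clone groups, those outside the comparison included. For the 32 genes the median SD was 0.86 among the NSC clones but 0.08 among the ESC NPC clones. Over all genes these SDs were 0.16 and 0.10. The count of 3 beside 22.5% therefore does not show that replication genes differed less than other genes.

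In vivo, fewer of these genes were measurable. Of the 32, 12 were detected on both in vivo arrays, 5 on iNSC in vivo only (Cdt1, Pola2, Prim2, Fen1, Chaf1b) and 15 on neither. Against the cultured clones, 2 (6.25%) rose and 11 (34.4%) fell in NSC in vivo, and 4 (12.5%) rose and 5 (15.6%) fell in iNSC in vivo. Of all genes, 33.9% were higher and 34.1% lower for NSC, and 33.6% and 34.4% for iNSC. The falls in NSC in vivo were thus near the share of all genes, and the other counts lay under theirs. Each in vivo kind is 1 array, assumed to vary like the clones, and the marker differences of these arrays given above moved with every such comparison. Their part in the result was not tested.

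Pold1 rose in both. It read 10.03 on NSC in vivo, above NSC clones at 8.05, 7.51 and 9.21 (1.78 ± 0.60, adjusted p = 0.024), and 10.17 on iNSC in vivo, above iNSC clones at 7.53, 6.43 and 7.58 (2.99 ± 0.60, 7.92-fold, adjusted p = 0.0015). E2f1 read 8.35 on iNSC in vivo, 4.0-fold above culture (adjusted p = 0.0011), and 6.87 on NSC in vivo, within the range of its clones. Pola2, the regulatory subunit of polymerase alpha, read 7.62 on iNSC in vivo, 2.73-fold above its clones (1.45 ± 0.31, adjusted p = 0.0021). Orc2 passed as higher on both, but it was above background neither there nor in the clones. These rises depend on the scaling: median scaling moved the median of all genes to -0.87 for NSC and -0.79 for iNSC, and no replication gene then rose, with 20 and 8 lower. Under it Pold1 stood at 0.07 and 1.43, E2f1 at 0.29 and Pola2 at -0.25 in iNSC, none past the threshold. These values of Pold1, E2f1 and Pola2 still lie above the shifted medians of all genes. Shares of all genes called under median scaling are not given here.

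Among the falls, Tyms was above background on neither in vivo array, and lower by at least 2.62-fold than in NSC (3 of 3 clones detected) and by at least 1.74-fold than in iNSC (adjusted p = 0.00055 and 0.0015). Adjusted p-values beside an at-least fold, here and below, test the levels as read, undetected values included, and not the bound. Orc6, detected throughout, was 2.49-fold lower in NSC in vivo (7.26 against 8.32 to 8.91) and 2.91-fold lower in iNSC in vivo (6.94 against 8.35 to 8.55). In NSC in vivo, Fen1 was at least 3.35-fold lower (adjusted p = 0.0039), Chaf1b at least 1.88-fold (adjusted p = 0.023), Cdt1 at least 1.85-fold (adjusted p = 0.015) and Pcna at least 1.36-fold (adjusted p = 0.023). Rpa2, a subunit of the single-strand binding protein, was at least 1.06-fold lower in NSC in vivo, and Cdc45, Pola2, Chaf1a and Ccne1 passed with no fold, since their cultured levels lay under the lowest detected level in vivo. In iNSC in vivo, Pcna was at least 1.06-fold lower, and Rpa2 and Ccne1 passed with no fold. Leaving out NSC-2, the lowest NSC clone for 26 genes, raises the cultured mean of these genes and deepens the falls by construction.

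**Figure D5:**
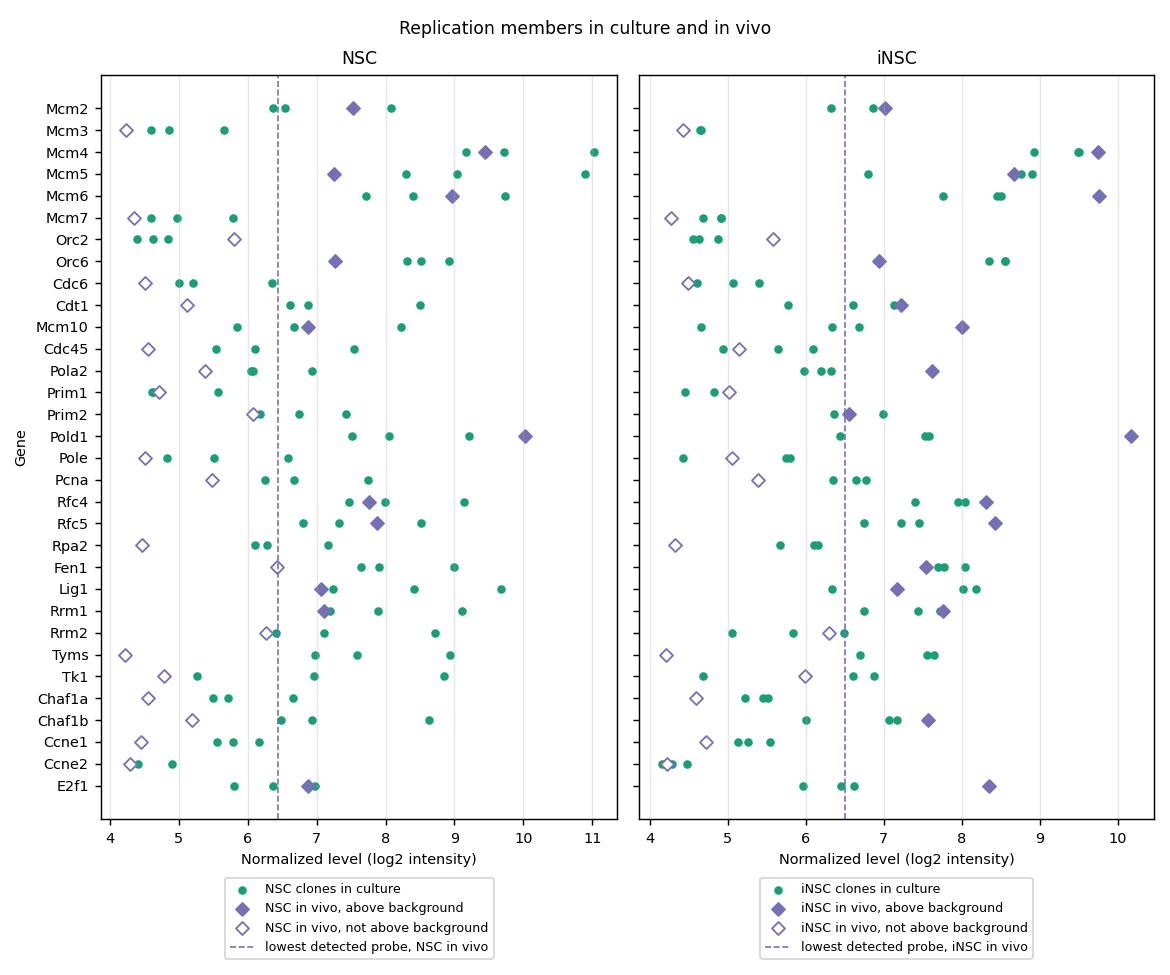
Log2 normalized intensity (x axis) of the 32 genes (y axis) in the 3 cultured clones (circles) and on the in vivo array (diamonds, open where not above background), for NSC on the left and iNSC on the right; the dashed line is the lowest level of a detected probe on that in vivo array. Pold1 lies to the right of its clones in both panels, and Tyms lies far to the left and open in both.

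The difference between in vivo and culture was itself compared between iNSC and NSC. It differed for 2 of the 32 genes, Pola2 (2.42 ± 0.44, log2, adjusted p = 0.003) and Cdt1 (2.93 ± 0.95, adjusted p = 0.047), both higher in iNSC in vivo, where 13.5% of all genes differed in that direction and 14.3% in the other. Both were above background on iNSC in vivo (7.62 and 7.22) and not on NSC in vivo (5.38 and 5.11), so the NSC side is known only as a bound. Set directly against each other, with 1 array each and no test, 8 genes were at least 2-fold higher on iNSC in vivo and none on NSC in vivo, against 9.18% and 9.21% of all genes. Of these, 7 were detected on iNSC in vivo, against 7.31% of all genes: Chaf1b (at least 2.19-fold), Pola2 (at least 2.26-fold), Fen1 (at least 2.15-fold), Cdt1 (at least 1.71-fold by the bound), E2f1 (2.79-fold), Mcm5 (2.67-fold) and Mcm10 (2.17-fold). The remaining one, Tk1, was above background on neither array.

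Counts for other genes of the pathway differed between lists and comparisons. Of 30 other replication factors tested, 22 rose and 3 fell in ESC NPC against NSC (73.3% and 10%, against 27.8% and 29.6% of all genes). Among them were Pold2, the small subunit of polymerase delta (3.22-fold), Tipin, a fork protection factor (4.85-fold), and Rpa3, the smallest subunit of the single-strand binding protein (2.69-fold). In iNSC against NSC, 1 fell (Rpa3, 2.07-fold, adjusted p = 0.0018) and none rose. In iNSC in vivo 7 rose and 7 fell (23.3% each, under the 33.6% and 34.4% of all genes) and in NSC in vivo 5 and 8 (16.7% and 26.7%, under 33.9% and 34.1%), with Rpa3 at least 2.74- and at least 5.93-fold lower.

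Of 15 further nucleotide supply and chromatin genes, 11 rose and 2 fell in ESC NPC (73.3% and 13.3%). In iNSC against NSC, 5 of them fell and none rose (33.3% fell, against 9.42% of all genes). Among the 5 were the dUTPase Dut (1.67-fold) and Dctpp1, which removes damaged dCTP (1.60-fold). Shmt1, also of the 5, was above background in no NSC or iNSC clone and has no usable difference here. Of 18 other E2F and G1/S regulators, 11 rose and 1 fell in ESC NPC (61.1% and 5.56%), with Skp2, which targets cell cycle inhibitors for degradation, 6.01-fold higher, and 1 rose and 3 fell in iNSC against NSC. Of 18 G2/M genes, 6 rose and none fell in ESC NPC against NSC (33.3% rose, near the 27.8% of all genes). All 18 had a fitted difference above 0, with a median of 1.26. Their levels varied widely among the NSC clones (median SD 1.47, against 0.16 over all genes), which limits the calls. Set against ESC NPC, 13 of the 18 were lower in iNSC and none higher (72.2% lower, against 28.9% of all genes). None of the 18 passed in iNSC against NSC (limma), where 0 were also at an unadjusted p under 0.05. Of all 10923 genes, 3421 were under that unadjusted p. The fitted difference was nevertheless below 0 for 17 of the 18 G2/M genes. In NSC in vivo, 7 fell (38.9%, near the 34.1% of all genes), with Prc1, a cytokinesis factor, at least 16.5-fold lower (adjusted p = 0.011, limma).

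Of 7 cell cycle inhibitors, 1 rose and 4 fell in ESC NPC against NSC (14.3% and 57.1%, against 27.8% and 29.6% of all genes). Cdkn1a, a target of p53, was 4.10-fold higher in ESC NPC than in NSC, and 6.01- and 5.70-fold higher in NSC in vivo and iNSC in vivo than in culture. Cdkn2c, Cdkn1b and Cdkn1c were 3.79-, 1.53- and 4.71-fold lower in ESC NPC than in NSC. Cdkn2a was at least 2.02-fold lower in NSC in vivo and at least 10.1-fold lower in iNSC in vivo.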

How the data were processed

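The 13 mouse samples were hybridised to Illumina bead arrays. For each of 25697 probes the deposited table gives a non-normalized signal intensity and the detection p-value reported by the authors. A second deposited table, whose unit was read from its values as log2, served as an alternative. It correlated at r = 0.978 with the levels computed here on each of the 13 arrays. Its highest value, 14.27, was also the same on all arrays, so r does not measure how well single arrays agree. Its column medians were 2.75 to 2.77, and its background correction and centring are not given in the sources used here. BeadStudio 3.2, RMA and lumi appear in the submitters' processing notes.

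Background was removed by normexp, with its parameters taken from the detection p-values and 16 added. Quantile normalization and log2 followed (limma 3.58.1, R 4.3.3). Probes were kept if their detection p was under 0.01 on at least 1 array, and the brightest probe stood for a gene. All 7 groups entered one limma fit (6 residual degrees of freedom, 3.10 prior). Its error pools the spread of every clone group, also in comparisons that leave some of them out. Tests were two-sided, adjusted by Benjamini-Hochberg over 10923 genes, and a gene was called at an adjusted p under 0.05. The number of arrays limits the precision. The steps were tested on simulated data.

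The members and lists were chosen with earlier results of these data known. In each comparison up to 8 members with the largest differences past the threshold and without overlap were named, with up to 4 genes of each other list by unadjusted p, and Cdkn1a and Cdkn2a. Other members are named by level or fold. Same-numbered NSC and iNSC clones deviated together (r = 0.211, 0.503 and 0.276), although the labels do not state a pairing, and the block is given beside that comparison. Same-numbered ESC NPC and NSC clones did not (r = -0.042 to -0.009). The alternatives tried were raw intensities without normexp, scaling by the median, the second deposited table, looser and stricter detection filters, averaging the probes of a gene, a prior that was trended and robust, the replicate block, fits on the compared groups alone, and each clone omitted in turn. Omitting the in vivo arrays, requiring detection in the brighter group, leaving out NSC-3 with iNSC-2, and the other Mcm6 probes were added after seeing the data.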

Additional observations from a re-analysis of the deposited data

Results flagged for a closer look

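The difference between in vivo and culture was not alike in iNSC and NSC for 2 of 32 replication genes (6.25%, under the 13.5% of all genes that differed in this direction), by the test of that difference. For the licensing factor Cdt1 it was larger in iNSC by 2.93 (log2, adjusted p = 0.047, limma): 7.22 on iNSC in vivo lay above its 3 clones, and the gene was not above background on NSC in vivo. Over the other settings its adjusted p ranged from 0.018 to 0.24. Settings in which the call was lost included median scaling, no detection filter and the trended robust prior. It was also lost without iNSC-1 (0.068) and without iNSC-2 (0.068). For the polymerase alpha subunit Pola2 it was larger by 2.42 (adjusted p = 0.003, 0.00013 to 0.044 over the other settings), with 7.62 on iNSC in vivo above all 3 clones. Its value on NSC in vivo, 5.38, was not above background (lowest detected level 6.44), so the size rests on an undetected value.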

How the results depend on the processing

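Counts of called replication genes kept within 1.5 times of those reported in most settings, and the exceptions follow. For iNSC against NSC the count of 0 became 1 with median scaling (Ccne1) and 2 with the replicate block. It became 1 without NSC-3 and iNSC-2 together, and leaving out the highest NSC and lowest iNSC clone raises the difference by construction. When 1 clone was left out the count ranged from 0 to 3, with 3 without NSC-2 and 1 without iNSC-1. Leaving out NSC-2, the lowest NSC clone for most genes, lowers the difference by construction, and so it does for NSC in vivo against NSC. With the replicate block 28 were called for ESC NPC against NSC and 31 for iNSC against ESC NPC. For ESC NPC against ESC the count of 3 became 6 without background correction, 5 with median scaling and 1 with the deposited values, and was 1 to 3 when 1 clone was left out. For NSC in vivo the count of 13 became 20 with median scaling and was 13 to 22 when 1 clone was left out, with 22 without NSC-2. For the difference of the in vivo effects the count of 2 became 1 with median scaling, 4 with the deposited values, 1 without a detection filter and 1 with a trended robust prior, and was 1 to 5 when 1 clone was left out, with 5 without NSC-2 or NSC-3 and 1 without iNSC-1 or iNSC-2. The 8 genes at least 2-fold higher on iNSC in vivo were 5 without background correction. Mcm6 in ESC NPC against NSC turned to 0.83 with the mean of its probes, to 2.37, 1.14 and 2.44 with each of the other probes, and to 2.43 without the in vivo arrays, since another probe is then the brightest. Pola2 in iNSC in vivo turned to -0.25 with median scaling. For other changes of sign or call the cause was not tested. Groups of 1 array rest on the clones' spread, and in vivo levels under 6.44 and 6.50 are bounds.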
